A study of Mus musculus with 30 samples.

Results

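The NOTCH receptors *Notch1*, *Notch2*, *Notch3* and *Notch4*, the ligands *Jag1* and *Jag2* and the target genes *Hey1*, *Hey2*, *Heyl* and *Hes1* were followed through 14 days of fracture repair. These 10 genes were taken by symbol from a table of 55416 gene IDs, and each symbol matched 1 ID. Bulk RNA sequencing covered the fracture site of 30 adult mice after a closed, non-stabilized fracture of the tibia. At 3 days the paper took the fractured tibia dissected around the break. At the later times it took the fracture callus, the repair tissue that bridges a broken bone. WT and P-Apex1KO mice were sampled at 3-, 6-, 10- and 14-dpf (days post fracture), with 4 and 4, 5 and 3, 4 and 3, and 4 and 3 mice. P-Apex1KO mice carry Prrx1-Cre and 2 floxed *Apex1* alleles (Apex1 C/C), and WT littermates carried floxed alleles without Cre or Prrx1-Cre with 1 floxed allele. Prrx1-Cre is active in limb mesenchyme and the cells that derive from it, so blood, endothelial and other cells of the callus keep *Apex1*, and each library mixes all of them.

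NOTCH receptors are membrane proteins that are cut when a ligand on a neighbouring cell, such as a Jagged protein, pulls on them. The released intracellular part joins the DNA-binding protein RBPJ in the nucleus and switches on repressors of the HES and HEY families. In bone, the pathway is known for keeping skeletal progenitors from maturing. In blood vessels, NOTCH1 and NOTCH4 act in endothelium and NOTCH3 in the mural cells that wrap it.

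*Apex1* is measured first as a check of the labels. At 3-dpf the libraries labelled P-Apex1KO held 18.4 to 34.5 CPM (counts relative to the size of each library, on 1 scale over the 30 libraries) and the WT libraries 26.4 to 33.1 CPM, and P-Apex1KO replicate 4 lay above each WT mouse. From 6-dpf on each P-Apex1KO mouse lay below each WT mouse, with mean levels of 15.4 against 24.2 CPM at 6-dpf (edgeR adjusted p = 0.0071), 15.5 against 23.7 CPM at 10-dpf (adjusted p = 0.0278) and 15.9 against 24.0 CPM at 14-dpf (adjusted p = 0.367 with sex in the model and 0.0187 without). Total counts on genes ran from 18334389 to 43111491 per library. At 14-dpf the 3 P-Apex1KO mice were female and 1 of the 4 WT mice, replicate 1, was female. With sex in the model, as in every main test here, the genotype difference at 14-dpf rests on that WT mouse, so the fit without sex is given beside it. The fit without sex sets 3 females against 1 female and 3 males, so a sex difference can enter its genotype difference.

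RBPJ acts on the target genes through sites near their start, and *Hey1*, *Hey2* and *Heyl* held the largest fitted differences between the genotypes among the members from 6-dpf on. The upstream sequence of *Hes1*, *Hey2* and *Heyl* on GRCm39 is therefore shown, as 250 bases before the start of the canonical transcript in GENCODE M39, moved upstream where an exon of another transcript lies there, read 5′ to 3′ along the gene. Capitals mark the RBPJ core letters TGGGAA on either strand (TTCCCA on the opposite strand).
*Hes1*, chr16:29883877-29884126, plus strand: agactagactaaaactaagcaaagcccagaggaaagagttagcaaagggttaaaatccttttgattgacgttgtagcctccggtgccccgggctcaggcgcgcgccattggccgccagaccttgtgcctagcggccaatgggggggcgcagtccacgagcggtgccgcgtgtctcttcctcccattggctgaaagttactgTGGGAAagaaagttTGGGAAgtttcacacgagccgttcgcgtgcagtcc
*Hey2*, chr10:30718829-30719078, minus strand: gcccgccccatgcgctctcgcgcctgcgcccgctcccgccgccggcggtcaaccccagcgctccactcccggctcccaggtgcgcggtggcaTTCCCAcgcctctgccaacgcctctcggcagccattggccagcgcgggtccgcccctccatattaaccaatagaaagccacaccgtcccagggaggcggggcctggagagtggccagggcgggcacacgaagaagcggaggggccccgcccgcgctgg
*Heyl*, chr4:123127099-123127348, plus strand: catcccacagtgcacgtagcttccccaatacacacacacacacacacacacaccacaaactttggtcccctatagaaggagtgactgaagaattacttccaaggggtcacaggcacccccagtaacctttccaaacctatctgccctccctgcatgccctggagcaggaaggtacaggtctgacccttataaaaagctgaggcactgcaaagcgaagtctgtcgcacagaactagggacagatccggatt
The core stood in the windows of *Hes1* and *Hey2* and in 23.2% of the 21770 protein-coding gene windows of this length. *Hes1* held 2 cores on its own strand, 30 to 35 and 44 to 49 bases before the start, and 3.09% of all windows held 2 or more. *Hey2* held 1 on the opposite strand, 153 to 158 bases before the start. The longer form GTGGGAA, which overlaps the core, occurred 1 time in each of these windows and in 5.5% of all windows. No match was found for *Heyl*, the receptors or the ligands, which says only that these letters are not in these windows, and no RBPJ binding was measured here.

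Levels per kb of exon, which allow genes to be set beside each other, placed *Notch2* first among the receptors in every group. In WT mice at 3-dpf it had 28.9 ± 2.16 CPM per kb (SD, n = 4), against 7.71 ± 0.335 for *Notch1*, 7.63 ± 1.43 for *Notch3* and 3.33 ± 0.427 for *Notch4*. *Notch1* and *Notch3* did not differ beyond their spread there. Of the ligands, *Jag1* had 8.71 ± 1.08 CPM per kb and *Jag2* 1.48 ± 0.162. Of the targets, *Heyl* (4.21 ± 0.555) and *Hes1* (4.09 ± 0.401) lay close together, above *Hey1* (1.22 ± 0.0834) and *Hey2* (0.375 ± 0.0667). By 14-dpf the order in WT mice had changed among the targets: *Heyl* stood at 21.5 ± 4.3 CPM per kb, *Hey1* at 13.03 ± 1.84, *Hes1* at 8.20 ± 0.604 and *Hey2* at 1.60 ± 0.348. In P-Apex1KO mice at 14-dpf *Hes1* (5.38 ± 0.848) and *Heyl* (4.37 ± 1.16) still lay within each other's spread and *Hey1* stood at 1.503 ± 0.119 (n = 3). The per-mouse levels are set side by side in the plot of the 10 genes by time.

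**Figure D1:**
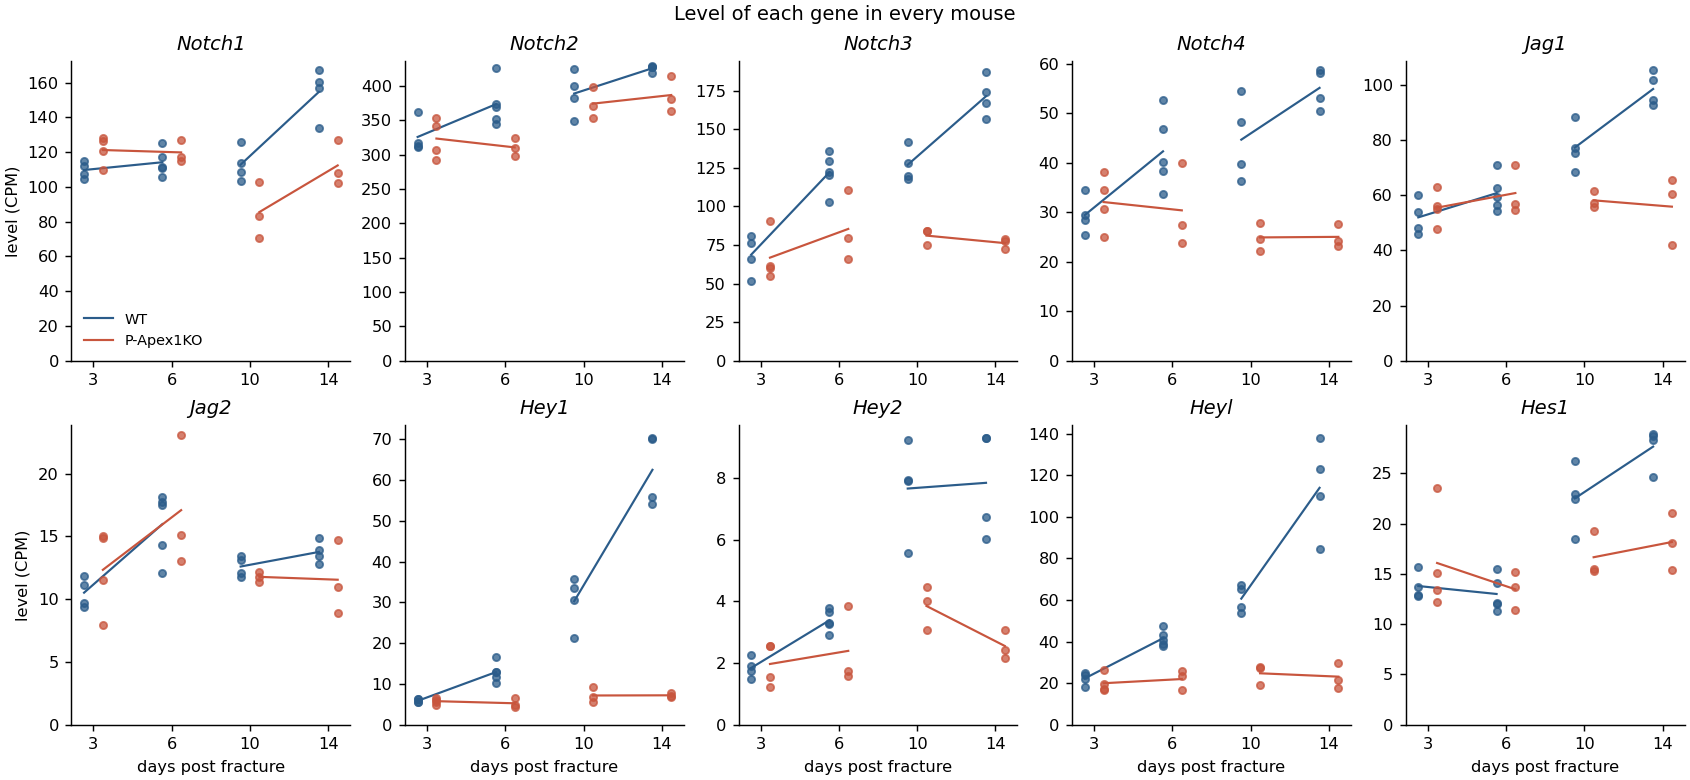
Level of each gene (vertical axis, CPM on a linear scale from 0) in every mouse against days post fracture, WT in blue and P-Apex1KO in red. Each point is 1 mouse, and lines join group means within 3- and 6-dpf and within 10- and 14-dpf; the *Hey1* and *Heyl* points separate from 6-dpf on, while the *Jag2* points overlap at every time.

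At 3-dpf no member was called between the genotypes. All 10 overlapped between WT and P-Apex1KO mice, while 1.7% of the 19866 genes tested had every P-Apex1KO mouse below every WT mouse. The quasi-likelihood F test of edgeR, adjusted by Benjamini-Hochberg over all genes tested, called 0 members and 0% of all genes. At an unadjusted p under 0.05 it had 0 members and 1216 genes, and DESeq2 called 0 members and 85 genes. The median log2 fold change (P-Apex1KO over WT) was 0.08 over the members and -0.00 over all genes tested. *Hey1* was at 6.18, 5.48, 6.20 and 5.52 CPM in WT mice and at 4.92, 5.65, 6.45 and 6.08 CPM in the libraries labelled P-Apex1KO, a log2 fold change of 0.00 with an approximate 95% interval from -0.28 to 0.28. Without P-Apex1KO replicate 4 the test again called 0 members, as it did with each other mouse left out. Some fold changes moved with 1 mouse. Without P-Apex1KO replicate 3 *Notch3* was at -0.41 (standard error 0.117, edgeR adjusted p = 0.416), against -0.04 with all mice. *Heyl* was then at -0.36 (standard error 0.152, edgeR adjusted p = 0.565), against -0.13. With other mice left out they reached up to 0.08 and -0.03.

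At 6-dpf *Hey1* and *Heyl* were lower in P-Apex1KO mice. edgeR called 2 of 10 members lower and none higher, against 10.9% of the 20260 genes tested called in either direction and 5.61% called lower. The median log2 fold change was -0.37 over the members and 0.01 over all genes. *Hey1*, a repressor that answers NOTCH and also BMP signals, was at 16.7, 10.2, 11.7, 12.9 and 12.99 CPM in WT mice and at 4.92, 6.55 and 4.30 CPM in P-Apex1KO mice. Every P-Apex1KO mouse thus lay below every WT mouse, and the fitted fold was 2.34 (log2 fold change -1.23, standard error 0.204, edgeR adjusted p = 0.00687). *Heyl*, a related repressor known in vascular smooth muscle, was at 38.9, 40.6, 38.0, 47.5 and 43.2 CPM in WT mice and at 23.3, 26.1 and 16.5 CPM in P-Apex1KO mice. It too did not overlap (log2 fold change -0.90, standard error 0.149, edgeR adjusted p = 0.0066). *Notch2* also had each P-Apex1KO mouse (298 to 324 CPM) below each WT mouse (345 to 426 CPM), with an edgeR adjusted p of 0.118. These were 3 of 10 members, and 11.9% of all genes tested lay that way.

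*Notch3* and *Notch4* overlapped at 6-dpf because of 1 mouse. *Notch3* was at 79.7, 111 and 65.8 CPM in the P-Apex1KO mice, against 103 to 136 CPM in WT (edgeR adjusted p = 0.0909). The high value belonged to replicate 2, which was also highest for *Notch4* (39.9 CPM), *Hey2* (3.84 CPM) and *Jag2* (23.1 CPM) among the P-Apex1KO mice. Of these mice it also had the highest summed endothelium (1292 CPM), mural cell (1788 CPM), osteoblast and osteocyte, macrophage and skeletal muscle (16090 CPM) markers. Its B cell, T cell, erythroid and neutrophil sums were the lowest, and the part of these differences was not tested. Without replicate 2, 5 members were called at 6-dpf, *Notch3* (log2 fold change -0.72), *Notch4* (-0.70) and *Hey2* (-0.99) among them. Without P-Apex1KO replicate 1 the count was 1, and *Hey1* had an edgeR adjusted p of 0.0521. Calls over all genes ran from 890 to 2359 with 1 mouse left out, against 2212 with all mice.

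At 10-dpf 6 of 10 members were lower in P-Apex1KO mice: the receptors *Notch3* and *Notch4*, the ligand *Jag1* and the targets *Hey1*, *Hey2* and *Heyl*. None was higher. Over the 18910 genes tested, 6.46% were called and 3.44% were called lower, and the median log2 fold change was -0.52 over the members against -0.00 over all genes. For 7 of 10 members every P-Apex1KO mouse lay below every WT mouse, as for 10.5% of all genes. The count of 6 rested on single mice: it was 3 without WT replicate 1, WT replicate 2 or P-Apex1KO replicate 3, and 1 (*Heyl*) without P-Apex1KO replicate 1. Calls over all genes moved as well, from 42 to 1827 with 1 mouse left out, against 1221 with all mice. With all mice, the member count ran from 4 to 7 over the other settings tried: *Jag1* lost its call in 3 of 8 (edgeR adjusted p up to 0.0706) and *Hey2* in 2 of 8 (up to 0.0804).

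*Hey1* at 10-dpf was at 33.5, 35.8, 21.2 and 30.6 CPM in WT mice and at 6.82, 9.21 and 5.48 CPM in P-Apex1KO mice. The groups lay far apart, with a fitted fold of 4.01 (log2 fold change -2.00, standard error 0.228, edgeR adjusted p = 0.00854), and the call was lost only without P-Apex1KO replicate 1 (adjusted p = 0.069). *Heyl* was at 65.2, 67.3, 53.7 and 56.4 CPM in WT mice and at 27.2, 27.8 and 19.2 CPM in P-Apex1KO mice. The difference (log2 fold change -1.24, standard error 0.126, edgeR adjusted p = 0.00545) passed with each of the 7 mice left out in turn. *Hey2*, the target known in heart and arteries, is the least abundant member, with 61 to 177 reads per library at this time. It was at 9.22, 7.90, 5.56 and 7.93 CPM in WT mice and at 3.08, 4.01 and 4.45 CPM in P-Apex1KO mice (log2 fold change -0.96, standard error 0.22, edgeR adjusted p = 0.0405). Its call was lost in 6 of the 7 fits that leave out 1 mouse, with adjusted p up to 0.246.

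Among the receptors at 10-dpf, *Notch3* was at 120, 142, 128 and 118 CPM in WT mice and at 84.1, 84.0 and 75.1 CPM in P-Apex1KO mice. The groups stood apart by more than their spread (log2 fold change -0.62, standard error 0.0904, edgeR adjusted p = 0.0137), and the call was lost only without P-Apex1KO replicate 1 (adjusted p = 0.0801). *Notch4* was at 48.3, 54.5, 39.8 and 36.3 CPM in WT mice and at 24.7, 27.9 and 22.2 CPM in P-Apex1KO mice (log2 fold change -0.77, standard error 0.13, edgeR adjusted p = 0.0184). Its call was lost in 4 of 7 fits without 1 mouse, with log2 fold changes from -0.90 to -0.61 in all of them. *Jag1* was at 68.4, 77.1, 88.2 and 75.2 CPM in WT mice and at 55.7, 57.1 and 61.4 CPM in P-Apex1KO mice (log2 fold change -0.42, standard error 0.0897, edgeR adjusted p = 0.0327). This was the smallest of the 6 differences, and the call was lost in 6 of 7 fits without 1 mouse (adjusted p up to 0.127). *Notch1* did not overlap either (103.4 to 126 CPM in WT, 70.6 to 102.9 CPM in P-Apex1KO), with an edgeR adjusted p of 0.0842. *Notch2* (log2 fold change -0.03, 95% interval -0.21 to 0.16) and *Jag2* (-0.10, -0.31 to 0.11) overlapped, as did *Hes1* (-0.40, -0.67 to -0.13, edgeR adjusted p = 0.121).

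At 14-dpf the 3 HEY-family targets and *Notch3* and *Notch4* were lower in P-Apex1KO mice. edgeR called 5 of 10 members lower and none higher, against 11.3% of the 20228 genes tested and 7.04% called lower. The median log2 fold change was -0.86 over the members and 0.04 over all genes. For 9 of 10 members, all but *Jag2*, every P-Apex1KO mouse lay below every WT mouse, and so did 23.4% of all genes. Without sex in the model 8 members were called, with *Notch1*, *Jag1* and *Hes1* added, and the number of genes called over the whole table rose from 2289 to 6849. That fit does not separate sex from genotype, so its added calls may hold sex differences.

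*Hey1* had the largest difference. It was at 70.2, 55.8, 70.1 and 54.0 CPM in WT mice, the first of them the female, and at 6.71, 7.84 and 7.08 CPM in P-Apex1KO mice. The fitted fold was 9.56 (log2 fold change -3.26, standard error 0.165, edgeR adjusted p = 0.000354), rank 3 by p of all genes tested, and the log2 fold change was -3.08 without sex. *Heyl* was at 84.5, 123, 138 and 110 CPM in WT mice and at 21.6, 29.9 and 17.9 CPM in P-Apex1KO mice. The WT female was the lowest WT mouse for *Heyl*, and the log2 fold change was -1.84 with sex (standard error 0.243, edgeR adjusted p = 0.00472) and -2.26 without. *Hey2* was at 9.29, 6.03, 6.73 and 9.31 CPM in WT mice and at 3.07, 2.16 and 2.42 CPM in P-Apex1KO mice (log2 fold change -1.83, standard error 0.288, edgeR adjusted p = 0.00784). Without sex the log2 fold change of *Hey2* was -1.57 (adjusted p = 0.000989). *Hes1*, the target that many other signals also induce, was at 28.9, 28.8, 24.6 and 28.4 CPM in WT mice and at 18.1, 15.4 and 21.1 CPM in P-Apex1KO mice. It did not overlap but missed the threshold with sex (log2 fold change -0.64, standard error 0.185, edgeR adjusted p = 0.0634) and passed without it (adjusted p = 0.00746).

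Of the receptors at 14-dpf, *Notch3* was at 157, 174, 167 and 187 CPM in WT mice and at 77.4, 72.1 and 79.1 CPM in P-Apex1KO mice. Each P-Apex1KO mouse lay well below each WT mouse, with a fitted fold of 2.02 (log2 fold change -1.02, standard error 0.108, edgeR adjusted p = 0.00173). *Notch4* was at 50.6, 58.2, 53.1 and 58.8 CPM in WT mice and at 23.2, 24.2 and 27.7 CPM in P-Apex1KO mice (log2 fold change -0.99, standard error 0.138, edgeR adjusted p = 0.00513). Without sex, where sex is mixed into genotype, the log2 fold changes were -1.13 for *Notch3* (edgeR adjusted p = 5.1e-05) and -1.10 for *Notch4* (adjusted p = 0.000131). The 5 calls at 14-dpf passed with each of the 7 mice left out in turn. The fit without the WT female has no sex term, since it sets P-Apex1KO females against WT males. In that fit genotype and sex cannot be told apart, so it does not show that the calls hold without her. *Notch1* ranged from 134 CPM in the WT female to 168 CPM in WT mice and from 102 to 127 CPM in P-Apex1KO mice (log2 fold change -0.23 with sex, edgeR adjusted p = 0.338, and -0.42 without, adjusted p = 0.0167). *Notch2* was at 419 to 429 CPM in WT mice and 364 to 415 CPM in P-Apex1KO mice, a log2 fold change of -0.12 with a 95% interval from -0.36 to 0.11 (-0.10 without sex, edgeR adjusted p = 0.336).

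Neither ligand was called at 14-dpf with sex in the model, and the ligands were not compared with each other. *Jag1* was at 94.2, 102, 105 and 92.5 CPM in WT mice and at 65.4, 41.8 and 60.2 CPM in P-Apex1KO mice. Its groups did not overlap, yet with sex in the model it missed the threshold (log2 fold change -0.73, standard error 0.209, edgeR adjusted p = 0.0641), and it passed without sex (log2 fold change -0.78, adjusted p = 0.00319). *Jag2* was at 12.8 to 14.9 CPM in WT mice and 8.92 to 14.7 CPM in P-Apex1KO mice (log2 fold change -0.19, 95% interval -0.72 to 0.34, and -0.21 without sex, edgeR adjusted p = 0.36). The plot of fold changes shows the 10 genes at the 4 times.

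**Figure D2:**
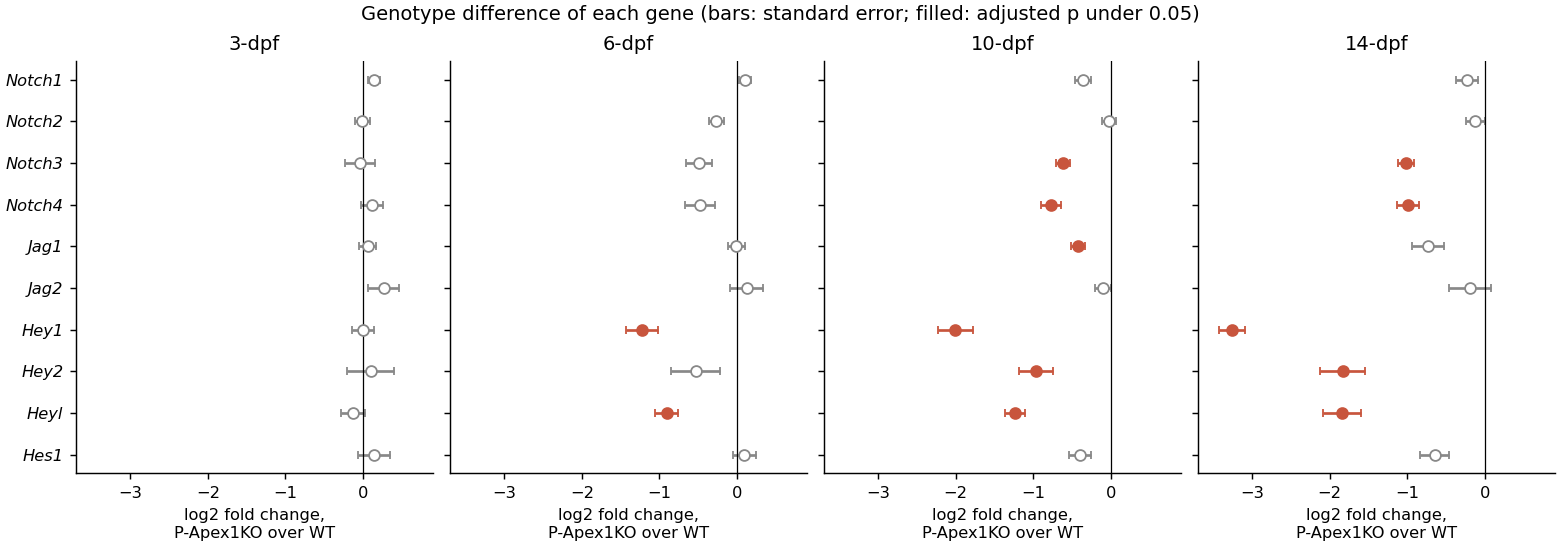
Log2 fold change of P-Apex1KO over WT (horizontal axis) for each gene at 3-, 6-, 10- and 14-dpf, from edgeR with sex in the model; bars are standard errors, and filled red points have an adjusted p under 0.05. All called points lie below 0, and *Hey1* is the leftmost at 6-, 10- and 14-dpf, with -1.23, -2.00 and -3.26.

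The genotype difference of *Hey1* changed between 3- and 6-dpf. Its log2 fold change was 1.22 lower at 6- than at 3-dpf (change -1.22, standard error 0.229, edgeR adjusted p = 0.0162), and it was the 1 member called in this test, which called 1.3% of 20468 genes. The call was lost without P-Apex1KO replicate 1 or replicate 3 of 6-dpf. Between 10- and 14-dpf edgeR called 0 members and 0.436% of 19705 genes. There 3 members and 2577 genes had an unadjusted p under 0.05, and DESeq2 called 1 member and 465 genes. The change of *Hey1* in that interval was -1.26 (standard error 0.292, edgeR adjusted p = 0.0969).

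Levels were also compared over time within each genotype. The tissue around the break was taken at 3-dpf and the callus at 6-dpf, so there the tissue taken cannot be told apart from time. From 3- to 6-dpf *Hey1* rose by 1.09 on the log2 scale in WT mice (standard error 0.152, edgeR adjusted p = 7.12e-05), *Heyl* by 0.86, *Hey2* by 0.85, *Notch3* by 0.79, *Jag2* by 0.56 and *Notch4* by 0.50. These were 6 of 10 members. Of the 20468 genes tested, 30.5% were called in either direction and 15.4% were called higher. The count was 3 without WT replicate 2, 3 or 4 of 3-dpf or WT replicate 4 of 6-dpf. With 1 mouse left out, 4735 to 6819 of all genes were called. In P-Apex1KO mice edgeR called 0 members from 3- to 6-dpf, with 14% of genes called. There 1 member and 5804 genes had an unadjusted p under 0.05, and DESeq2 called 0 members. *Hey1* changed by -0.13 (standard error 0.172) in these mice, and *Notch3* by 0.36 (standard error 0.196).

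From 10- to 14-dpf 4 members rose in WT mice: *Hey1* by 1.10 on the log2 scale (standard error 0.163, edgeR adjusted p = 0.0013), *Heyl* by 0.90, *Notch1* by 0.47 and *Notch3* by 0.42. Here 11.1% of 19705 genes were called and 6.19% were called higher, and the member count was 2 without WT replicate 3 of 10-dpf. With 1 mouse left out, 1162 to 2760 of all genes were called. *Hey2*, which had risen from 3- to 6-dpf, changed by 0.06 (standard error 0.199). In P-Apex1KO mice edgeR called 0 members from 10- to 14-dpf and 0.259% of genes. There 2 members and 2811 genes had an unadjusted p under 0.05, and DESeq2 called 0 members. Mean *Hey1* in P-Apex1KO mice was 5.77, 5.26, 7.17 and 7.21 CPM over the 4 times, against 5.85, 12.9, 30.3 and 62.5 CPM in WT mice. A difference between WT and P-Apex1KO in these time courses was tested only as given above, and 6-dpf was not compared with 10-dpf, since the sample names change there and a batch cannot be told apart from time.

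The make-up of the receptor RNA also differed. As a share of the 4 receptors per kb of exon, *Notch3* made up 16.0% ± 2.27 (SD, n = 4) in WT mice at 3-dpf and 25.7% ± 1.16 (n = 4) at 14-dpf, and 15.2% ± 2.44 (n = 4) and 15.9% ± 1.49 (n = 3) in P-Apex1KO mice. The share of *Notch2* went the other way in WT mice, from 60.8% ± 2.56 to 51.2% ± 1.93, and stood at 64.1% ± 1.54 in P-Apex1KO mice at 14-dpf. Its level in WT mice did not fall, at 28.9 CPM per kb at 3-dpf and 37.8 at 14-dpf. The sample names change between 6- and 10-dpf, so from 3- to 14-dpf a batch cannot be told apart from time. *Notch4* held 8.42% ± 0.399 in WT and 5.3% ± 0.651 in P-Apex1KO mice at 14-dpf. For *Notch2*, *Notch3* and *Notch4* the shares of the 2 genotypes did not overlap at 10- and 14-dpf. *Notch1* held 13 to 13.9% in WT and 15.1 to 18.5% in P-Apex1KO mice at 6-dpf, without overlap, and 14.7% in both genotypes at 14-dpf. These shares are a description and were not tested.

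**Figure D3:**
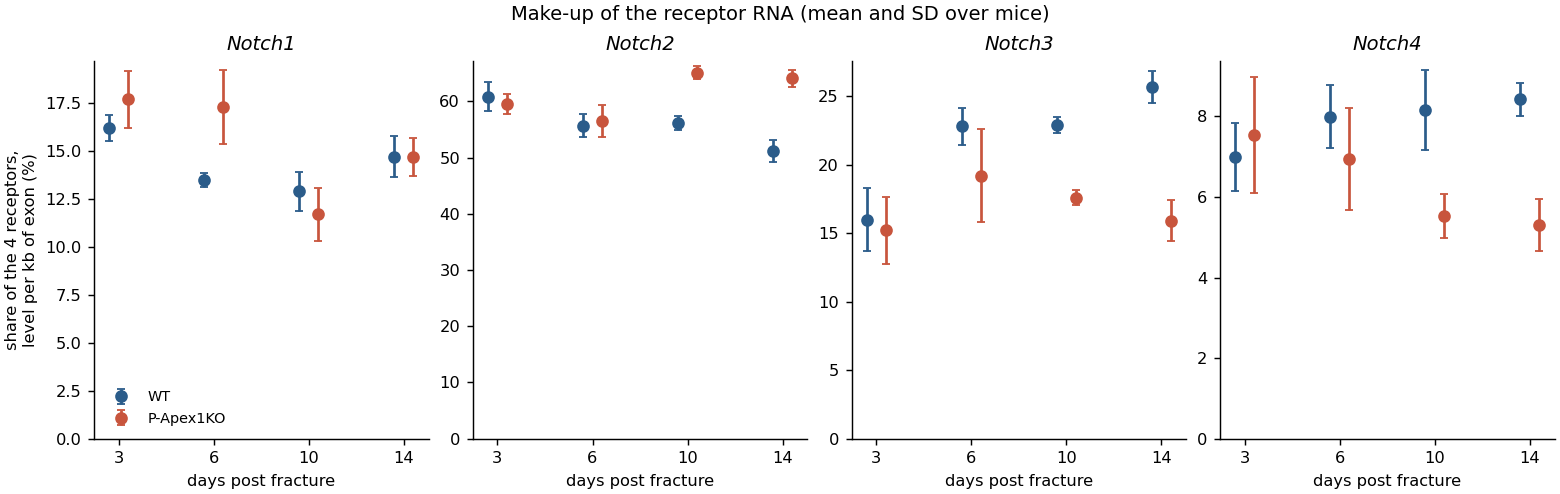
Share of each receptor among the 4, from levels per kb of exon (vertical axis, percent, from 0), against days post fracture; points are means and bars SDs over mice, WT in blue and P-Apex1KO in red. *Notch3* and *Notch4* take a smaller share in P-Apex1KO mice at 10- and 14-dpf and *Notch2* a larger one.

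Of 52 other genes of the pathway, 46, 47, 45 and 46 passed the filter on low counts at 3-, 6-, 10- and 14-dpf. None was called at 3-dpf, 5 were lower and 1 higher at 6-dpf, 4 lower and none higher at 10-dpf, and 6 lower and 1 higher at 14-dpf. Of all genes tested, 10.9%, 6.46% and 11.3% were called at the last 3 times, and the medians over the list were 0.05, -0.09, -0.11 and -0.24 on the log2 scale. *Rbpj*, whose protein carries the pathway's signal to DNA, was at means of 93.5, 79.5, 80.2 and 72.7 CPM in WT mice and 112, 78.6, 78.5 and 82.8 CPM in P-Apex1KO mice and was called at no time.

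At 6-dpf the 3 ligand-type genes called were lower. *Dll4*, the endothelial ligand, was at means of 10.6 CPM in P-Apex1KO and 16.4 CPM in WT mice (log2 fold change -0.59). The non-canonical ligand genes *Dlk1* (-1.29) and *Dlk2* (-1.39) were lower as well, *Dlk2* at 2.42 against 6.60 CPM. *Numbl* (-0.57), a relative of the NOTCH antagonist Numb, and the ubiquitin ligase gene *Nedd4* (-0.81) were lower, and *Neurl1a* (0.72), a ubiquitin ligase that acts on ligands, was higher. At 10-dpf *Dlk1* (-1.23), the coactivator gene *Maml3* (-0.52), the corepressor gene *Spen* (-0.42) and *Nrarp* (-0.53), a feedback target that degrades the NOTCH intracellular part, were lower. *Nrarp* was at means of 11.4 CPM in P-Apex1KO and 15.9 CPM in WT mice. Of the other targets, *Nrarp* and *Hes6* passed the count filter at 10- and 14-dpf, while *Hes2*, *Hes3*, *Hes5*, *Hes7* and *Helt* did not.

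At 14-dpf the largest fall was that of *Dtx4*, a ubiquitin ligase gene of the Deltex family, from a mean of 118 CPM in WT to 51.2 CPM in P-Apex1KO mice (log2 fold change -1.41, standard error 0.116, edgeR adjusted p = 0.000883). *Dtx4* was also the 1 pathway gene outside the 10 members whose genotype difference changed from 10- to 14-dpf (change -1.10, edgeR adjusted p = 0.00928). Of the receptor cleavage genes, 3 were lower: *Furin* (-0.69), which cuts the receptor on its way to the surface, and *Aph1a* (-0.70) and *Ncstn* (-0.53), which encode parts of gamma-secretase. *Rfng* (-0.93), which adds sugars to the receptor, and *Maml3* (-0.80) were lower too. *Dlk2* was higher (3.02), at means of 1.59 CPM in P-Apex1KO and 0.535 CPM in WT mice. With sex in the model that change is set against the 1 WT female, and it is larger than the ratio of the means. Without sex these 7 genes were called in the same directions, with log2 fold changes of -1.16 for *Dtx4*, -0.74 for *Furin*, -0.77 for *Aph1a*, -0.43 for *Ncstn*, -0.82 for *Rfng*, -0.64 for *Maml3* and 1.59 for *Dlk2*. In that fit 20 of the 46 genes of the list tested were lower and 3 higher. Calls over the whole table rose as well, to 6849 genes from 2289 with sex. The plot of these genes by step of the pathway shows the calls.

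**Figure D4:**
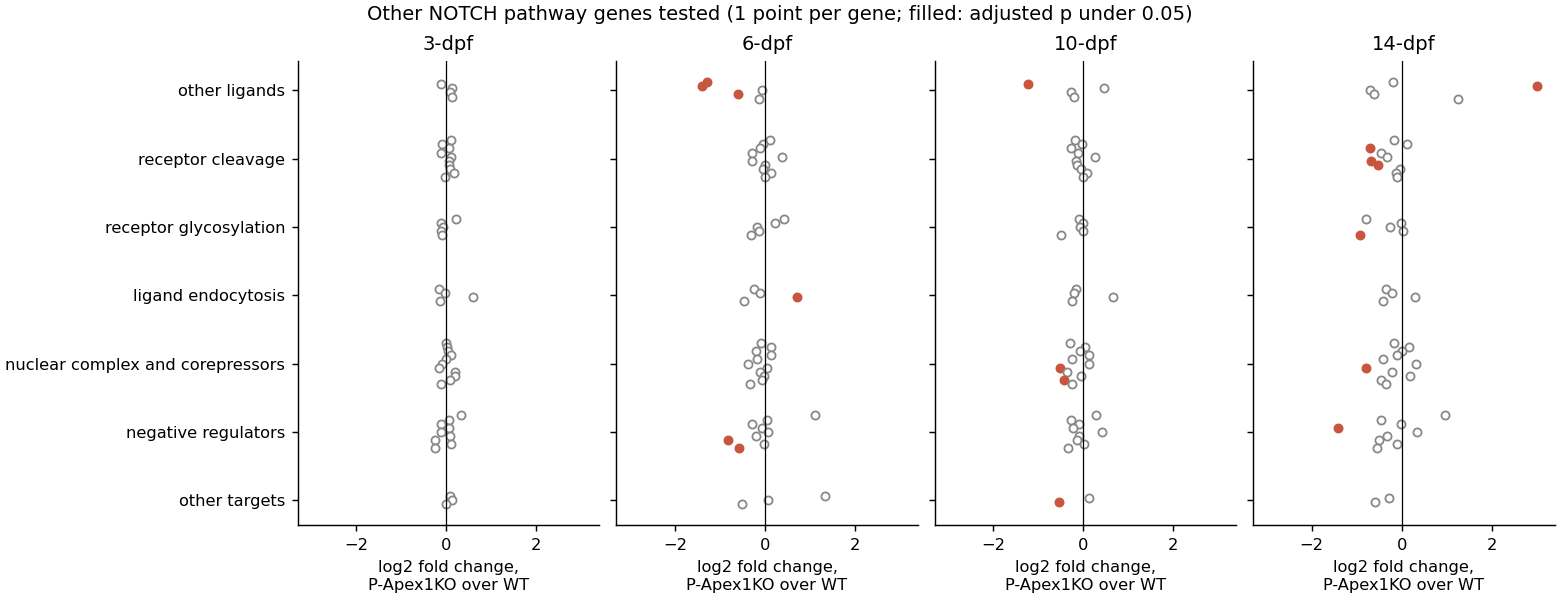
Log2 fold change of P-Apex1KO over WT (horizontal axis) for the other NOTCH pathway genes tested, in rows by step of the pathway and in panels by time; each point is 1 gene, and filled red points have an adjusted p under 0.05. No point is filled at 3-dpf, and at 14-dpf the filled points are 6 genes below 0 and *Dlk2* above it.

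The callus mixes cell types, so markers of the cells known to express these genes were read beside them; in bulk tissue, fewer cells of a type and less RNA per cell cannot be told apart. Of 12 endothelium markers none was called at 3- or 6-dpf, 2 were lower at 10-dpf and 5 lower and 1 higher at 14-dpf, with medians of 0.20, -0.14, -0.28 and -0.46 on the log2 scale. Their summed level was 1325 to 1417 CPM in WT mice and 998 to 1190 CPM in P-Apex1KO mice at 14-dpf, and no endothelium marker was at 0 in any mouse. Over that sum, *Notch4* was at 3.82 to 4.19% in WT mice and 2.22 to 2.42% in P-Apex1KO mice at 14-dpf, without overlap. The ratio did not overlap at 10-dpf (3.25 to 4.55% and 2.22 to 2.67%) or 6-dpf (3.33 to 4.35% and 2.86 to 3.09%) either, and overlapped at 3-dpf. Without sex, where 6849 genes were called over the whole table, 9 endothelium markers were lower and 1 higher at 14-dpf.

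Of 11 mural cell markers none was called at 3-dpf, *Cspg4* was lower at 6-dpf, *Pdgfrb* and *Mcam* at 10-dpf and *Pdgfrb* and *Abcc9* at 14-dpf. Their medians were 0.07, -0.07, -0.05 and 0.55 on the log2 scale. The summed level at 14-dpf was 1250 to 1509 CPM in WT mice and 960 to 1372 CPM in P-Apex1KO mice, which overlap. Over that sum *Notch3* was at 11.1 to 12.9% in WT and 5.76 to 7.51% in P-Apex1KO mice, and *Heyl* at 6.76 to 9.15% and 1.3 to 3.11%. At 10-dpf, where *Notch3* was also called lower, its ratio overlapped (6.4 to 8.75% in WT and 4.86 to 6.48% in P-Apex1KO), as at 6-dpf (5.89 to 7.16% and 6.19 to 6.98%). The ratio of *Heyl* did not overlap at 6-dpf (1.97 to 2.43% and 1.46 to 1.92%) or 10-dpf (2.68 to 4.2% and 1.25 to 2.09%). Without sex, 3 mural cell markers were lower and 4 higher at 14-dpf.

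Osteoblast and osteocyte markers moved with the members more widely: of 10, 7 were lower and 1 higher at 6-dpf, and 6 were lower at 10- and at 14-dpf. Their summed level was 71120 to 97120 CPM in WT mice and 17760 to 19180 CPM in P-Apex1KO mice at 14-dpf. Over this sum *Hey1* was at 0.0627 to 0.0985% in WT and 0.0366 to 0.0441% in P-Apex1KO mice at 14-dpf, and *Jag1* at 0.097 to 0.148% and 0.235 to 0.356%. At 10-dpf the *Hey1* ratio did not overlap (0.05 to 0.0726% and 0.0248 to 0.0336%), and at 6-dpf, where *Hey1* was called lower, it overlapped (0.0239 to 0.0341% and 0.0198 to 0.0242%). Every P-Apex1KO mouse thus lay above every WT mouse in the ratio of *Jag1* to these markers at 14-dpf, and below every WT mouse in its CPM. Cartilage markers were lower at 6-dpf (10 of 10, median -2.73). At 14-dpf 9 of 10 were higher and 1 lower (median 2.67, with sex in the model, while their summed levels overlapped, and 1 higher and 1 lower without sex). Skeletal muscle markers were higher at 6-dpf (9 of 10, median 1.41). At 3-, 10- and 14-dpf none was called with sex in the model, yet all 10 had log2 fold changes above 0 (medians 0.97, 1.46 and 0.86). At 3- and 10-dpf all 10 also had an unadjusted edgeR p under 0.05. The part of these marker differences in the member differences was not tested.

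**Figure D5:**
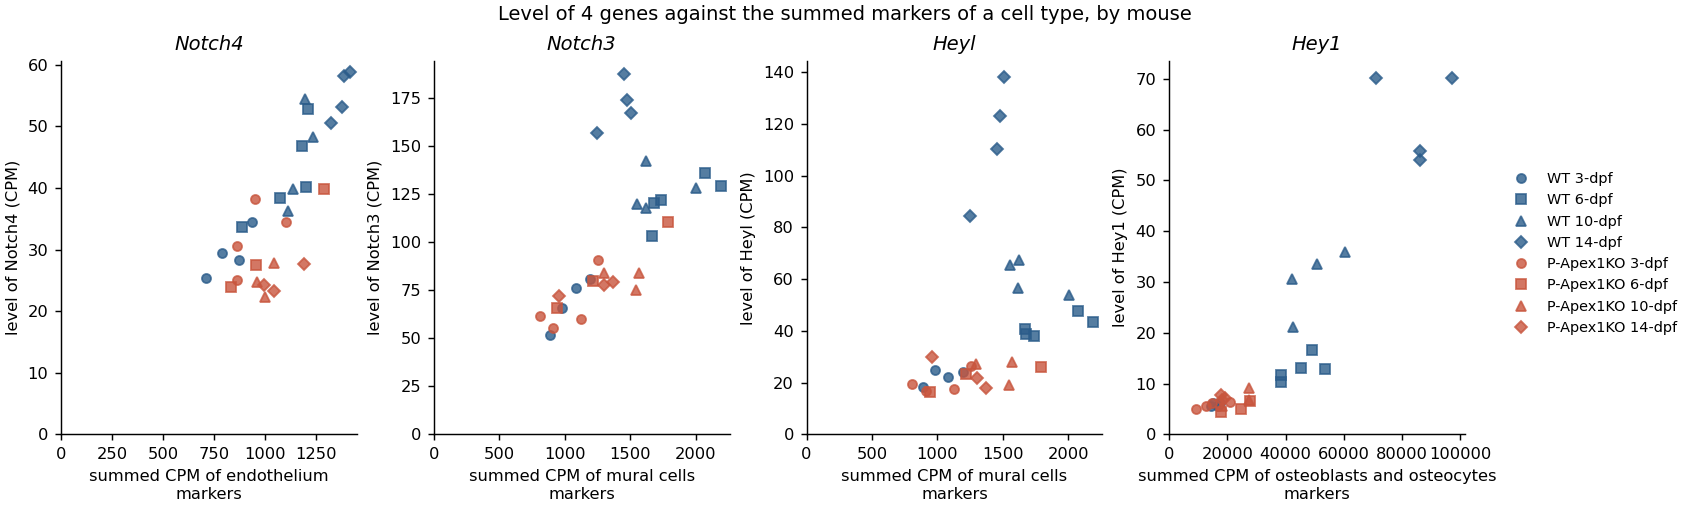
Level of *Notch4*, *Notch3*, *Heyl* and *Hey1* (vertical axes, CPM from 0) against the summed CPM of endothelium, mural cell, mural cell and osteoblast and osteocyte markers (horizontal axes, from 0); each point is 1 mouse, coloured by genotype and shaped by time. At 14-dpf the *Notch3* and *Heyl* points of the genotypes lie apart (157 to 187 against 72.1 to 79.1 CPM for *Notch3*) while the mural cell sums overlap.

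The genes whose pattern was most like each member were sought among 13793 other protein-coding genes, by Pearson's r of log2 CPM over the 30 libraries after the mean of each time point was subtracted. These correlations share the genotype difference and the depth of the same libraries and are descriptions. *Hey1* was closest to *Tent5a* (r = 0.965), *Unc5b* (0.957) and *Ankrd6* (0.956), and *Heyl* to *Mtss2* (0.967), *Hey1* itself (0.953) and *Sh3rf1* (0.95). *Notch3* was closest to *Mtcl2* (0.961), *Fgd1* (0.954) and the mural cell marker *Pdgfrb* (0.952), and *Notch4* to *Nckap5l* (0.957), the endothelium marker *Cdh5* (0.956) and *Mta1* (0.952). *Pdgfrb* does not stand for its list: at 14-dpf 7 of 11 mural cell markers had log2 fold changes above 0 and 4, with *Pdgfrb*, below. *Jag1* was closest to *Slc25a32* (0.925), *Ext1* (0.914) and *Sdc1* (0.902), and *Hey2* to *Bmp1*, *Ptprk* and *Gnb5* (0.915 to 0.919). *Notch1* (*Fbrs*, *Mbd6*, *Tle3*), *Notch2* (*Iqsec1*, *Fam117b*, *Med13l*), *Jag2* (*Sorbs3*, *Afap1l1*, *Sema3g*) and *Hes1* (*Rabep1*, *Ube2q2*, *Mt1*) reached at most 0.898, 0.83, 0.843 and 0.803. Among the members, *Hey1* had r = 0.897 with *Notch4*, 0.89 with *Notch3*, 0.726 with *Jag1*, 0.507 with *Notch2* and 0.268 with *Jag2*.

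On GRCm39 the 10 genes lie on 7 chromosomes: *Notch1* (ENSMUSG00000026923) on chromosome 2 from 26347915 to 26406675 and *Jag1* (ENSMUSG00000027276) on chromosome 2 from 136923373 to 136958693, *Notch2* (ENSMUSG00000027878) on chromosome 3 from 97920800 to 98057677 and *Hey1* (ENSMUSG00000040289) on chromosome 3 from 8726956 to 8732385. *Notch3* (ENSMUSG00000038146) lies on chromosome 17 from 32339794 to 32385893 and *Notch4* (ENSMUSG00000015468) on chromosome 17 from 34783220 to 34807477. *Heyl* (ENSMUSG00000032744) lies on chromosome 4 from 123127349 to 123143682, *Hey2* (ENSMUSG00000019789) on chromosome 10 from 30708350 to 30718828, *Jag2* (ENSMUSG00000002799) on chromosome 12 from 112871421 to 112893437 and *Hes1* (ENSMUSG00000022528) on chromosome 16 from 29882134 to 29886643.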

How the data were processed

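Fracture calluses (at 3-dpf the dissected fracture site) were ground in liquid nitrogen and extracted with TRIzol. Stranded total RNA libraries depleted of rRNA and beta globin RNA were sequenced. The authors aligned the reads to mm39 with STAR 2.7.0d and counted uniquely mapped reads per Ensembl v104 gene on the reverse strand with featureCounts, and the deposited values are raw counts. The aligner and count settings follow the paper's methods and the submitters' processing notes.

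From these counts, edgeR 4.0.16 in R 4.3.3 fitted each time point alone with genotype and sex (filterByExpr, TMM, robust quasi-likelihood F tests), adjusting over all genes tested by Benjamini-Hochberg with a threshold of 0.05. Models of 3- and 6-dpf and of 10- and 14-dpf, with 4 groups and sex, tested changes over time and of the genotype difference. Standard errors are the log2 fold change over the square root of F. Displayed CPM use TMM factors over all 30 libraries, and levels per kb divide by the exon length of GENCODE M39, whose gene starts also set the upstream windows. The upstream window of *Hey1* is not reported here. Sex and group came from the labels. The 10 members, the 52 other pathway genes and 12 marker lists were chosen with earlier results of these data known. Pathway genes were named where they passed the threshold, at most 8 per time point, together with *Rbpj*, *Hes6* and the untested targets, which were added after their values were seen. The 3 genes of highest r were named per member. The fits were tested on simulated data. Alternatives were DESeq2 1.42.0, no sex term, other scalings and filters, all libraries in one model, replicate numbers as a block instead of sex, and each mouse left out. Replicate numbers were not taken as pairs. The mice limit the precision, and at low counts (*Hey2*) counting error adds to it. Whether mice of one group share a litter is not stated, so p-values measure the spread between these mice.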

Additional observations from a re-analysis of the deposited data

Results flagged for a closer look

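Of 50 groups of 4 or 5 mice, 2 held 1 mouse apart from the others by Dixon's 95% criterion, about as many as chance gives at 1 in 20. *Notch2* in WT replicate 4 at 3-dpf was at 362 CPM against 311 to 317 CPM in the other WT mice (gap over range 0.882). *Hes1* in WT replicate 3 at 14-dpf was at 24.6 CPM against 28.4 to 28.9 CPM (gap over range 0.865).

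The genotype difference of *Hey1* differed between 3- and 6-dpf by -1.22 on the log2 scale (edgeR adjusted p = 0.0162): the P-Apex1KO libraries stood at 4.92 to 6.45 CPM at 3-dpf and 4.30 to 6.55 CPM at 6-dpf, and WT mice at 5.48 to 6.20 CPM and 10.2 to 16.7 CPM. One of the 4 libraries labelled P-Apex1KO at 3-dpf, replicate 4, held more *Apex1* than any WT mouse of that time, and without it 1 member, as before, was called in this test.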

How the results depend on the processing

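The direction of each member called in a genotype test held under all alternatives and with each mouse left out. Over 320 values of members and alternatives with all mice, 282 kept direction and side of the threshold, 5 fell below it, 20 rose past it and 13 changed sign, and with 1 mouse left out (300 values) these counts were 245, 19, 11 and 25. Members called at 6-dpf were 4 with DESeq2 and 4 with all libraries in one model, at 14-dpf 8 without sex and 8 in one model, and 1 changed from 10- to 14-dpf with DESeq2. Over all genes, DESeq2 called 85 at 3-dpf, 2187 at 10-dpf, 718 and 465 for the changes of the genotype difference from 3- to 6- and 10- to 14-dpf, and 550 from 10- to 14-dpf in P-Apex1KO mice. Without sex the counts were 750 at 10-dpf, 6849 at 14-dpf and 672 from 10- to 14-dpf in P-Apex1KO mice. One model gave 38 at 3-dpf and 6188 at 14-dpf, and no count filter gave 4 at 3-dpf.

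Library size alone gave 3594 genes at 6-dpf. For the change of the genotype difference it gave 433 genes from 3- to 6-dpf and 8 from 10- to 14-dpf. It moved the median of all genes by 0.187 at 6-dpf and 0.269 at 14-dpf, and by 0.23 and 0.157 for these changes. The share of calls lower in P-Apex1KO went from 51.4, 53.3 and 62.2% to 22.6, 35.3 and 29% at 6-, 10- and 14-dpf. Whether these shifts account for the counts was not tested. Library size alone turned *Notch2* at 10-dpf (0.0548) and at 14-dpf *Notch1* (0.0427), *Notch2* (0.147) and *Jag2* (0.0695). The other signs that turned were of values near 0: *Hey1* at 3-dpf (-0.0236 without sex, -0.0519 library size, -0.0282 replicate block, -0.00874 no filter, -0.00165 with 10 counts in every sample) and *Jag1* at 6-dpf (0.0304 without sex, 0.178 library size, 0.101 replicate block, 0.00364 with 10 counts).

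Replicate numbers did not pair the mice: of 13 same-numbered pairs, 5 correlated above 0.1 (-0.257 to 0.398). The replicate block in place of sex called 1 gene at 3-dpf, 677 at 6-dpf, 90 for the change from 3- to 6-dpf with 0 members, 1621 from 3- to 6-dpf and 656 from 10- to 14-dpf in P-Apex1KO mice, and 3 members from 3- to 6-dpf in WT mice.

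With 1 mouse left out, genes called ran from 0 to 10 at 3-dpf, 890 to 2359 at 6-dpf, 42 to 1827 at 10-dpf and 1206 to 6181 at 14-dpf, where the fit without the WT female has no sex term. They ran from 104 to 450 and 2 to 206 for the changes of the genotype difference from 3- to 6- and 10- to 14-dpf, from 4735 to 6819 and 1162 to 2760 for the changes over these times in WT mice, and from 1223 to 3258 and 0 to 252 in P-Apex1KO mice. Members called ran from 1 to 5 at 6-dpf, 1 to 5 at 10-dpf, 5 to 8 at 14-dpf, 0 to 1 for the change from 3- to 6-dpf, 3 to 7 and 2 to 5 over the intervals in WT mice and 0 to 1 from 3- to 6-dpf in P-Apex1KO mice. Signs turned only for members not called with all mice. At 3-dpf these were *Notch2* (-0.10 to 0.0839), *Notch3* (-0.41 to 0.0814, the lowest without P-Apex1KO replicate 3), *Jag1* (-0.0279 to 0.13), *Hey1* (-0.0698 to 0.0629), *Hey2* (-0.22 to 0.26) and *Hes1* (-0.0525 to 0.29). At 6-dpf they were *Jag1* (-0.11 to 0.0712), *Jag2* (-0.14 to 0.29) and *Hes1* (-0.0263 to 0.18), and at 10-dpf *Notch2* (-0.0684 to 0.0322). The dropped sex terms, scalings and smaller groups named here are what differed between the fits, and the cause was not tested.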

Other observations

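The other marker lists moved as well, and their part in the member differences was not tested. Osteoclast markers were lower for 5 of 8 at 10-dpf and 8 of 8 at 14-dpf (medians -1.71 and -2.47 on the log2 scale). Macrophage markers were higher for 6, 5 and 6 of 8 at 6-, 10- and 14-dpf, with 2 lower at 14-dpf, and neutrophil markers were higher for 6 of 8 at 14-dpf. Adipocyte markers were higher for 4 and 5 of 6 at 6- and 10-dpf, erythroid markers for 5 of 7 at 14-dpf, B cell markers for 2 of 7 at 6-dpf and T cell markers for 4 of 8 at 6-dpf and 1 of 8 at 10-dpf. None of these lists had a call at 3-dpf. Without sex in the model, higher at 14-dpf were 8 of 8 neutrophil, 8 of 8 T cell, 7 of 7 erythroid, 6 of 7 B cell, 6 of 8 macrophage, 6 of 10 skeletal muscle and 1 of 6 adipocyte markers, and 8 of 8 osteoclast and 2 of 8 macrophage markers were lower. That fit called 6849 genes over the whole table, against 2289 with sex.

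Against the summed endothelium markers *Hey1* was at 1.06 to 1.39% in WT and 0.507 to 0.515% in P-Apex1KO mice at 6-dpf, and at 3.81 to 5.3% and 0.595 to 0.786% at 14-dpf. *Notch1* over the same sum overlapped at 14-dpf, at 10.1 to 12.1% in WT and 9.07 to 12.7% in P-Apex1KO mice.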
